A study of Mus musculus with 4 samples.

Results

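The genes described here are 36 mouse genes of liver glucose, urea and amino acid metabolism, followed through liver cell lines. They were fixed by name, and their probe sets were all those to which the platform annotation gives that symbol and no other. This gave 52 probe sets for 33 genes, out of 45101 probe sets on the array and 18193 genes with such a probe set. Gls2, Sds and Mat2a had none and were not analysed here. A further probe set names Ass1 together with another gene, cannot be assigned to either, and was left out of all counts; its signals are given with the urea cycle.

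The series holds 4 Affymetrix Mouse430_2 arrays of total RNA. The resident liver stem cell (RLSC) group is a pair of lines on 1 array each. MetE14/3 goes back to clone B2 of a primary culture of embryonic liver carrying the cyto-Met transgene, and WTE14/1 to a culture of wild-type liver; the embryos of both were 14 days post coitum. RLSC colonies were picked for their palmate shape and grown on collagen I in serum-containing medium for about 50 generations before freezing. MMH-D3, a hepatocytic line described by the submitters as differentiated, was measured on 2 arrays. The shared protocol follows the establishment of hepatocyte lines from livers that express a truncated Met, with EGF, IGF-II and insulin in the medium. The source name of the wild-type sample reads WT E14/3, while its title, used here, reads WTE14/1. Whether separate MMH-D3 cultures were used for its arrays is not in the labels. The p-values therefore measure only the spread between these arrays, and the RLSC spread includes the difference between the lines.

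In the liver, hepatocytes keep blood glucose steady by storing glycogen and by making glucose from lactate and amino acids. Nitrogen freed from amino acids is passed on by transaminases and turned into urea by a cycle shared between mitochondria and cytosol, or is fixed as glutamine. Several of these enzymes, such as G6pc, Cps1, Otc, Tat and Mat1a, are classical products of mature hepatocytes, while others, such as Pck2, Got1, Asns and Psat1, are made in many proliferating cells.

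Median signals of the arrays lay between 16.9 and 28, and 35.8% to 40.8% of probe sets read 50 or more, the level below which a probe set is called at background here. Spearman correlations of signal were 0.879 between the RLSC lines and 0.863 between the MMH-D3 arrays, against 0.838 to 0.86 between arrays of different groups. Poly-A spike-in controls (24 probe sets) read a median of 9.46 times as high on MetE14/3 and MMH-D3 array 1, called pair A, as on WTE14/1 and MMH-D3 array 2, called pair B. The deposited values also carry 1 decimal in pair A and more in pair B. The labels name no batch. Of 8 hepatocyte markers with a probe set, 2 read 50 or more in MetE14/3 and 1 in WTE14/1, against 2 on MMH-D3 array 1 and 5 on array 2. Albumin (Alb) read 1.7 in MetE14/3 and 2.91 in WTE14/1, against 44.7 and 440.5 on MMH-D3 arrays 1 and 2. Markers of other cell types also separated the groups. The 8 stellate and fibroblast markers summed to 1942 in MetE14/3 and 9273 in WTE14/1, against 100.1 and 144 on MMH-D3 arrays 1 and 2, most of it Acta2, and 5 of the 8 stayed below 50 on every array. The 4 mesothelial markers summed to 2985 and 2141 in the RLSC lines, against 12563 and 19958, with Upk1b at 10.5 and 3.74 against 6215 and 8376. The 5 cholangiocyte and progenitor markers with a probe set summed to 9212 and 4168, against 13415 and 16414, most of it Krt19. Krt19, Krt7 and Epcam were higher on both MMH-D3 arrays, but Sox9 was lower, at 277 and 183 in the RLSC lines against 38.3 and 1.33. Prom1 read 139.5 in MetE14/3 and 4.07 in WTE14/1, against 15.8 and 56.7. The 6 macrophage and leukocyte markers summed to 468 and 359, against 1908 and 3748, most of it from Cd14. All 5 endothelial and all 3 erythroid markers with a probe set stayed below 50 on every array. The part of these cell type markers in the differences between RLSC and MMH-D3 was not tested.

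Most enzymes of the set, G6pc, Cps1, Otc, Tat and Mat1a among them, stayed at background in every line. Of the 33 genes, 20 had no probe set that reached 50 on any array, or 60.6%, against 41.7% of all genes with a probe set. By probe set this was 30 of 52 member probe sets, or 57.7%, against 46.2% of all probe sets with a single symbol and 54.3% of all probe sets other than controls. The 29 probe sets of these 20 genes read between 0.262 and 41.7. Their median signal was 5.9 in MetE14/3 and 4.57 in WTE14/1, against 6.5 and 7.45 on MMH-D3 arrays 1 and 2. No detection calls were used here, so a reading of this size gives no order between arrays. In bulk RNA, fewer cells of a type and less RNA per cell cannot be told apart.

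**Figure D1:**
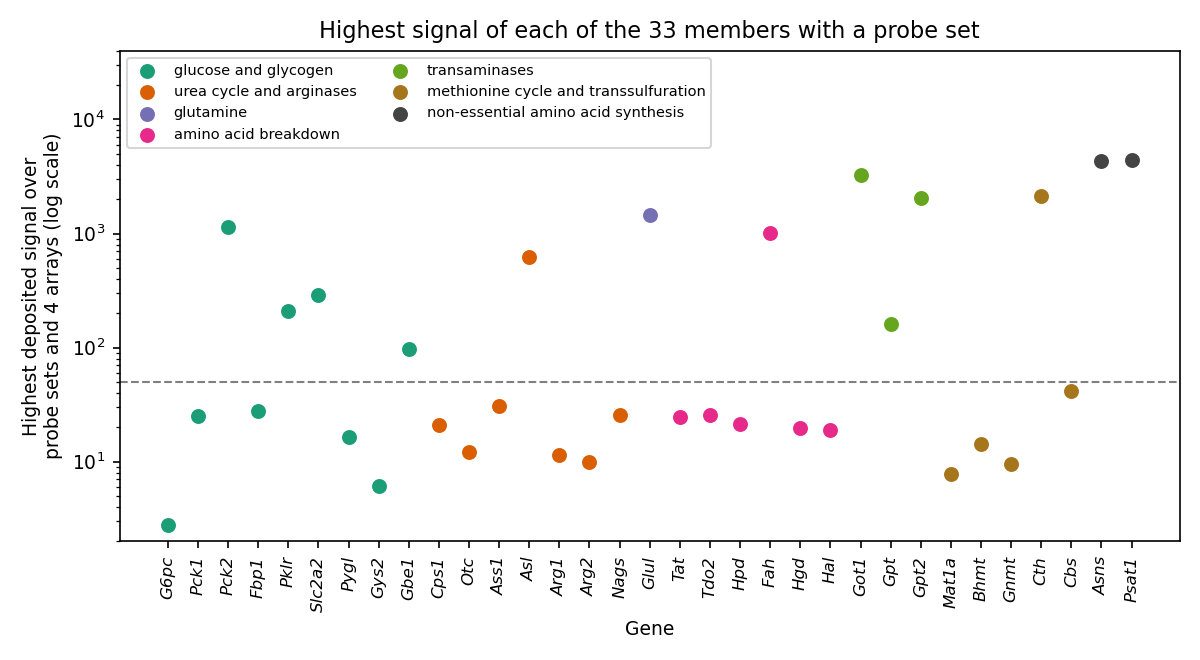
The highest deposited signal of each of the 33 genes with a probe set, over its probe sets and all 4 arrays, on a log axis; colours give the metabolic role and the dashed line marks a signal of 50. The 20 genes under the line include 6 of the 7 urea cycle and arginase genes, and the nearest genes on either side are Cbs at 41.7 and Gbe1 at 96.9. Probe sets differ in brightness, so heights of different genes are not to be set against each other.

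At background were G6pc, the glucose-6-phosphatase that releases glucose from hepatocytes, at 2.2 and 1.13 in MetE14/3 and WTE14/1, with 0.4 and 2.79 in MMH-D3. Pck1, the cytosolic enzyme that starts the path from oxaloacetate to glucose, stayed at or below 25 in all of its 3 probe sets. Fbp1, the fructose bisphosphatase of gluconeogenesis, read 7 and 27.6 in MetE14/3 and WTE14/1 and 13.8 and 14.1 in MMH-D3. Pygl, which breaks down liver glycogen, did not exceed 16.6, and Gys2, the liver glycogen synthase, did not exceed 6.1.

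Of the 7 urea cycle and arginase genes, 6 were at background by their single-symbol probe sets, with 9 of their 10 probe sets between 0.262 and 30.8. These were Cps1, which makes carbamoyl phosphate, Nags, which makes its activator, Otc, which makes citrulline, Ass1, which joins citrulline to aspartate, and the arginases Arg1 and Arg2. For Ass1 this rests on 1 probe set. The probe set shared with another symbol was above background on all arrays, at 99.2 in MetE14/3 and 973 in WTE14/1, against 53.8 and 75.1 on MMH-D3 arrays 1 and 2, and was highest in WTE14/1. Counted for Ass1, it would leave 19 of the 33 genes at background. Among enzymes of amino acid breakdown, Tat (tyrosine), Tdo2 (tryptophan), Hpd and Hgd (the tyrosine pathway after Tat) and Hal (histidine) were at background, none above 25.5. In the methionine cycle, Mat1a, the liver enzyme that makes S-adenosylmethionine, Bhmt, which remethylates homocysteine, Gnmt, which uses up methyl groups, and Cbs, the first transsulfuration enzyme, were at background as well.

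The other 13 genes read 50 or more on at least 1 array, 10 of them on all 4 arrays in a probe set. They were Pck2, Pklr, Slc2a2, Gbe1, Asl, Glul, Fah, Got1, Gpt, Gpt2, Cth, Asns and Psat1.

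**Figure D2:**
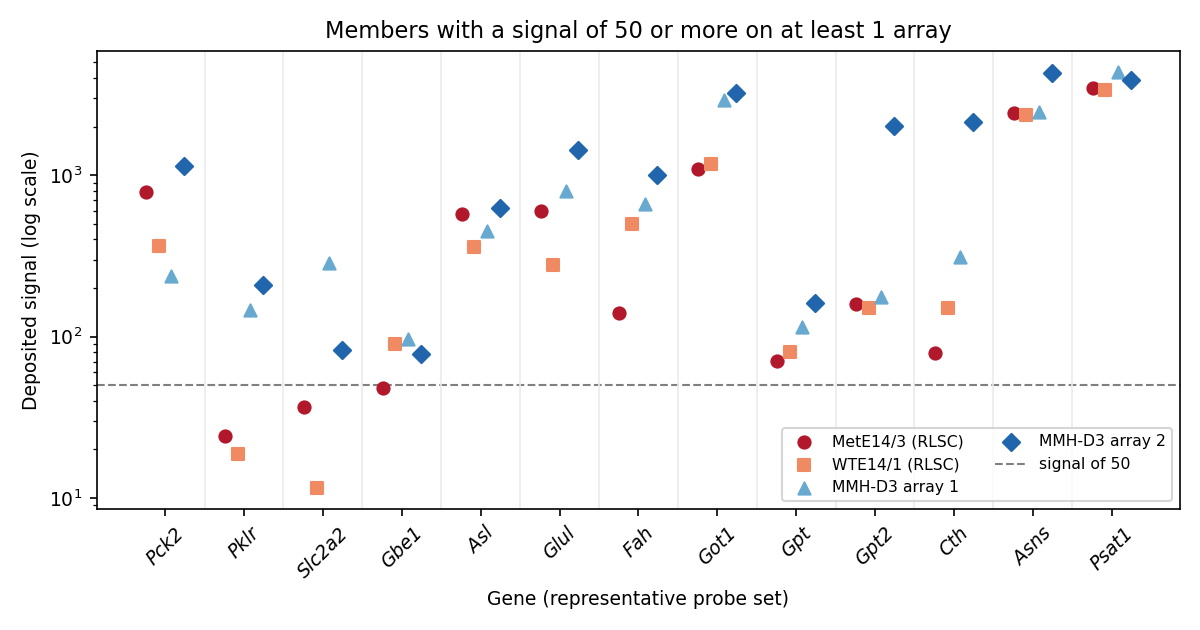
Deposited signals on a log axis of the 13 genes that reached 50 on at least 1 array, by the probe set that represents each gene; each point is 1 array, RLSC lines to the left of MMH-D3, and the dashed line is a signal of 50. For Gpt2 and Cth, MMH-D3 array 2 stands apart from the other 3 arrays, while both MMH-D3 arrays lie above both RLSC lines for Pklr and Got1.

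The comparison sets the RLSC lines against MMH-D3, the line that the submitters describe as differentiated. It was fitted by limma over 12598 genes past a filter on low signals, on the log2(signal + 4) scale after quantile normalization, and differences below are RLSC minus MMH-D3 on that scale with a moderated standard error (SE). Of the genes with a probe set, 14 did not pass the filter and 19, or 57.6%, were tested, against 69.2% of all genes; 6 of them were at background by the level of 50. No tested gene of the set passed at a limma adjusted p of 0.05, where 0.397% of all genes were higher in RLSC and 0.516% lower. At an unadjusted p under 0.05, none was higher (5.27% of all genes) and 6 were lower (7.1% of all genes): Pklr, Slc2a2, Glul, Fah, Got1 and Cth.

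Both RLSC lines lay below both MMH-D3 arrays at 11 of 19 genes, or 57.9%, against 21.4% of all genes, and above both at none, against 20.8%. In 9 of the 11 the gene also reached 50, Pklr and Slc2a2 among them on the MMH-D3 arrays alone. The others were Tdo2 and Hpd. On the deposited signals the count was also 11, with Asns in the place of Hpd. The difference was negative for 17 of the 19, or 89.5%, against 48% of all genes, and the median was -0.55 against 0.03 for all genes. The count of 17 includes small differences, for Pck2 (-0.06), Hpd (-0.11), Ass1 (-0.13) and Fbp1 (-0.17), which turned positive without further normalization. Of these, Hpd, Ass1 and Fbp1 were at background by their single-symbol probe sets. The probe set that names Ass1 and another gene, outside these counts, went the other way. Its difference was 2.14, with 0.53 in pair A and 3.75 in pair B. None of the 19 had an RLSC mean under the filter level, and Pck1 had an MMH-D3 mean under it. The median was -0.43 within pair A and -1.00 within pair B, against -0.03 and 0.06 for all genes.

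**Figure D3:**
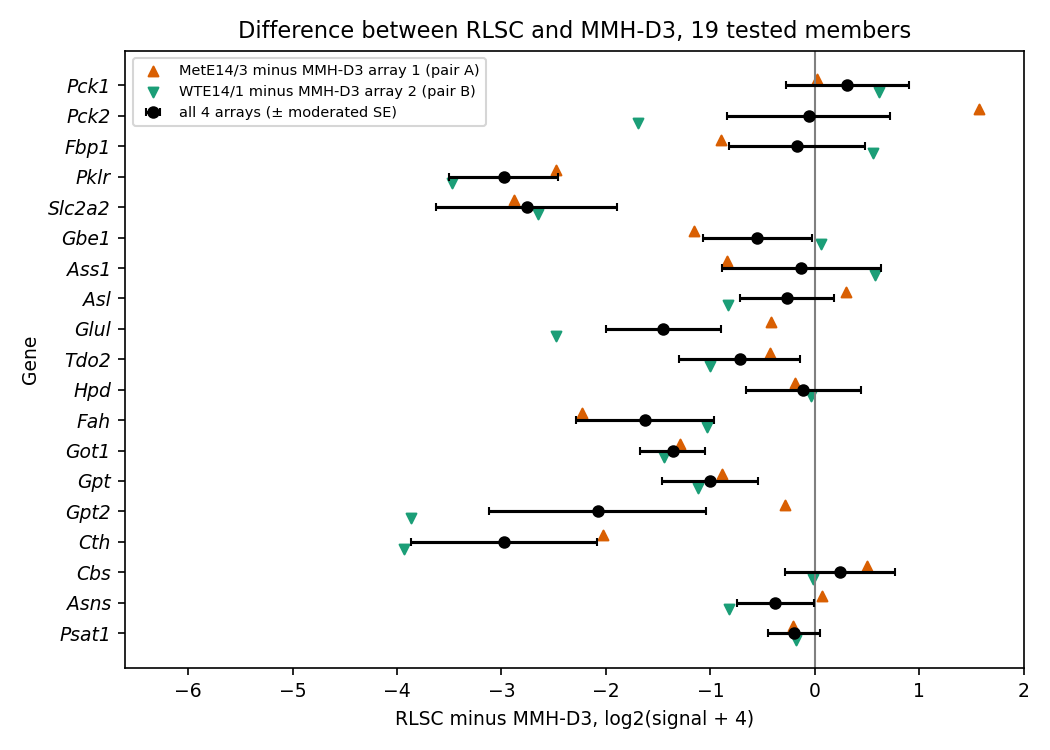
RLSC minus MMH-D3 for the 19 tested genes on the log2(signal + 4) scale; black points are the limma estimates with bars of 1 moderated SE, and triangles are the differences within pair A (MetE14/3 minus MMH-D3 array 1) and pair B (WTE14/1 minus MMH-D3 array 2). Slc2a2, Got1 and Gpt have like values in both pairs, while Gpt2, Glul and Pck2 do not. Pklr is negative in both, at -2.48 in pair A and -3.47 in pair B.

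Among glucose genes, Pklr and Slc2a2 had the most negative differences, and neither passed the test. Pklr, the pyruvate kinase of liver and red cells, read 24.3 in MetE14/3 and 18.7 in WTE14/1, against 146 and 208 on MMH-D3 arrays 1 and 2. The groups did not overlap, and the RLSC readings were at background, so the size of the difference depends on the pseudocount. The difference was -2.98 (SE 0.52, limma adjusted p = 0.0705). Each of the 3 Pklr probe sets gave a negative difference, from -3.84 to -2.76. Averaged over these probe sets, the gene passed, at -3.19 (SE 0.44, limma adjusted p = 0.0459). Over all settings its limma adjusted p lay between 0.0459 and 0.404.

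Slc2a2 encodes GLUT2, the glucose transporter of the hepatocyte membrane. It read 36.9 in MetE14/3 and 11.5 in WTE14/1, against 287 and 82.5 on MMH-D3 arrays 1 and 2. RLSC lay below both MMH-D3 arrays, which themselves differed by -1.92 on the log2 scale, array 2 minus array 1. Both RLSC readings were at background, so the size of this difference too depends on the pseudocount. The difference was -2.76 (SE 0.87, limma adjusted p = 0.257), from -2.97 with a pseudocount of 1 to -2.24 with a pseudocount of 16, and -1.81 without MMH-D3 array 1.

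Pck2, the mitochondrial counterpart of Pck1, showed no common order of the groups. It read 784 in MetE14/3 and 364 in WTE14/1, against 236 and 1141 on MMH-D3 arrays 1 and 2. The RLSC lines lay between the MMH-D3 arrays, and the fitted difference was -0.06 (SE 0.78, limma adjusted p = 0.989). It was 1.57 within pair A and -1.69 within pair B, and the other Pck2 probe set gave the same order of the 4 arrays. Gbe1, the branching enzyme of glycogen synthesis, read 48.4 in MetE14/3 and 89.6 in WTE14/1, with 96.9 and 78.1 on MMH-D3 arrays 1 and 2 and overlapping groups (-0.55, SE 0.52).

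Asl was above background in all lines. The enzyme splits argininosuccinate into arginine and fumarate, and is also used outside the liver to make arginine. Its signal was 575 in MetE14/3 and 359 in WTE14/1, while MMH-D3 arrays 1 and 2 gave 452 and 624. The groups overlapped, and the difference was -0.27 (SE 0.45, limma adjusted p = 0.89).

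Glul, glutamine synthetase, which fixes ammonia in the hepatocytes around the central vein, read 596 in MetE14/3 and 276 in WTE14/1, against 797 and 1439 on MMH-D3 arrays 1 and 2. Both lines lay below both MMH-D3 arrays, by -0.42 in pair A and -2.48 in pair B. The fitted difference of -1.45 (SE 0.55, limma adjusted p = 0.361) did not pass, and its other probe set gave -1.92.

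Fah, the last enzyme of tyrosine breakdown, was the only breakdown enzyme of the set that reached 50. It read 139.7 in MetE14/3 and 496 in WTE14/1, while MMH-D3 arrays 1 and 2 gave 664 and 1003. The groups did not overlap, and MetE14/3 was the lowest of the 4 arrays. The difference was -1.63 (SE 0.66, limma adjusted p = 0.393), with -2.23 in pair A and -1.03 in pair B. It was -0.74 without MetE14/3 and -2.58 without WTE14/1.

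The transaminases Got1, Gpt and Gpt2 had negative differences that did not pass the test. Got1, the cytosolic aspartate transaminase, read 1096 and 1165 in MetE14/3 and WTE14/1, against 2912 and 3244 in MMH-D3. It averaged 1130.4 ± 48.9 over the RLSC lines and 3078 ± 235 over the MMH-D3 arrays (SD, n = 2 each), so the gap between the groups was many times the spread within them. The difference of -1.36 (SE 0.31, unadjusted p = 0.0042) was -1.29 in pair A and -1.44 in pair B, and did not pass over all genes (limma adjusted p = 0.133). Over the alternatives it ranged from -1.50 to -1.22.

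Gpt, the cytosolic alanine transaminase, read 70.5 and 80.7 in MetE14/3 and WTE14/1, against 115 and 161 in MMH-D3 (-1.00, SE 0.46, limma adjusted p = 0.458). The groups did not overlap, and the difference was -0.89 in pair A and -1.12 in pair B. Gpt2, its mitochondrial counterpart, gave 159 in MetE14/3 and 151 in WTE14/1, with 176 and 2029 on MMH-D3 arrays 1 and 2. MMH-D3 array 1 lay close to the RLSC lines and array 2 far above all 3. The fitted difference was -2.08 (SE 1.04, limma adjusted p = 0.5), but -0.29 within pair A and -3.87 within pair B.

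Cth, the cystathionine lyase that makes cysteine, was the only gene of methionine metabolism in the set above background. It read 78.9 in MetE14/3 and 150.3 in WTE14/1, against 313 and 2123 on MMH-D3 arrays 1 and 2. The groups did not overlap, and array 2 stood highest. The difference was -2.98 (SE 0.89, limma adjusted p = 0.234), with -2.03 in pair A and -3.93 in pair B.

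The synthetic enzymes Asns and Psat1 were well above background in all lines. Asns, which makes asparagine, read 2416 and 2354 in MetE14/3 and WTE14/1, against 2478 and 4296 in MMH-D3. The RLSC lines were close to MMH-D3 array 1 (-0.38, SE 0.37, limma adjusted p = 0.793). Psat1, a transaminase of serine synthesis, gave 3467 in MetE14/3 and 3352 in WTE14/1, with 4381 and 3904 on MMH-D3 arrays 1 and 2 (-0.20, SE 0.25, limma adjusted p = 0.846). Its other probe set had overlapping groups.

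The MMH-D3 arrays differed from each other at Gpt2, Cth and Pck2 more than the RLSC lines did at any tested gene of the set. These 3 of 19 genes, or 15.8%, were at least 4-fold higher on MMH-D3 array 2 than on array 1, against 2.94% of all genes, and none was at least 4-fold lower, against 3.02%. With 1 array on each side this is a description of these arrays, with no test. Gpt2 was 10.3-fold higher on array 2, Cth 6.36-fold and Pck2 4.44-fold. All 4 Gpt2 probe sets were higher on array 2, by 1.86 to 3.37 on the log2 scale. Asns was 1.91-fold higher, while Psat1 differed by -0.05 on the log2 scale.

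Gpt2, Cth, Pck2, Asns and Psat1 are known targets of the amino acid response, in which the transcription factor ATF4 raises amino acid synthesis and transport genes when amino acids are short or the endoplasmic reticulum is stressed. The list of other genes of this response held 16 genes, all tested. Of these, 5 were at least 4-fold higher on MMH-D3 array 2 than on array 1, or 31.2%, against 2.94% of all genes. At least 2-fold higher were 10, or 62.5%, against 13.5% of all genes, and none was at least 2-fold lower, against 12.8%. At the same size 3 of the 19 genes of the set were higher, or 15.8%, and 2 lower, or 10.5%, namely Ass1 and Slc2a2. The list median was 1.20, against 0.00 for all genes. The 5 genes, named after their values were seen, were Nupr1, Trib3, Ddit3, Chac1 and Atf5.

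Trib3, a pseudokinase induced by ATF4, read 2803 on MMH-D3 array 2 and 93.3 on array 1, with 114 in MetE14/3 and 131 in WTE14/1. Ddit3, the stress factor CHOP, read 3825 on array 2 and 182 on array 1, with 188 and 379.8 in the RLSC lines. Nupr1, a small stress-induced nuclear protein, read 2938 on array 2 and 78 on array 1, with 196 and 157 in the RLSC lines. For each of these genes array 2 stood far above the other 3 arrays. The part of the array pair in these readings was not tested.

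Of the list genes with the highest mean, Atf4 itself was 3.16-fold higher on array 2, while Phgdh, which opens the serine pathway, was 0.768-fold. The hepatocyte markers that reached 50 also differed between these arrays. Apob, Apoa1, Alb and Ttr were higher on array 2, and Afp was lower. Fgb, Ahsg and Apoa2 were at background on both arrays, so their readings give no order. Ttr read 160.1 on array 2 and 6.7 on array 1. The 8 hepatocyte markers summed to 8205 on array 2 and 4426 on array 1, most of it Apob, at 4647 on array 2 and 2879 on array 1. Apoa1 read 2002 on array 2 and 20.9 on array 1, while Afp was lower on array 2, at 923 against 1456, and Apoa2 was at background on both. Between RLSC and MMH-D3 no gene of the list passed. At an unadjusted p under 0.05, 0 of the 16 were higher and 2 lower, against 5.27% and 7.1% of all genes. The list median was -0.71, against 0.03 for all genes, and the array pairs differed. In pair A, Nupr1, Trib3, Ddit3, Chac1 and Atf5 differed by 1.03, 0.05, -0.12, 1.22 and -0.68. In pair B, which holds MMH-D3 array 2, the same genes differed by -4.35, -4.56, -3.37, -2.66 and -2.30. Slc7a11 and Cebpb were negative in both pairs, at -1.36 and -1.10 in pair A and -2.67 and -2.74 in pair B. The part of this response in the readings of Gpt2, Cth and Pck2 was not tested.

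**Figure D4:**
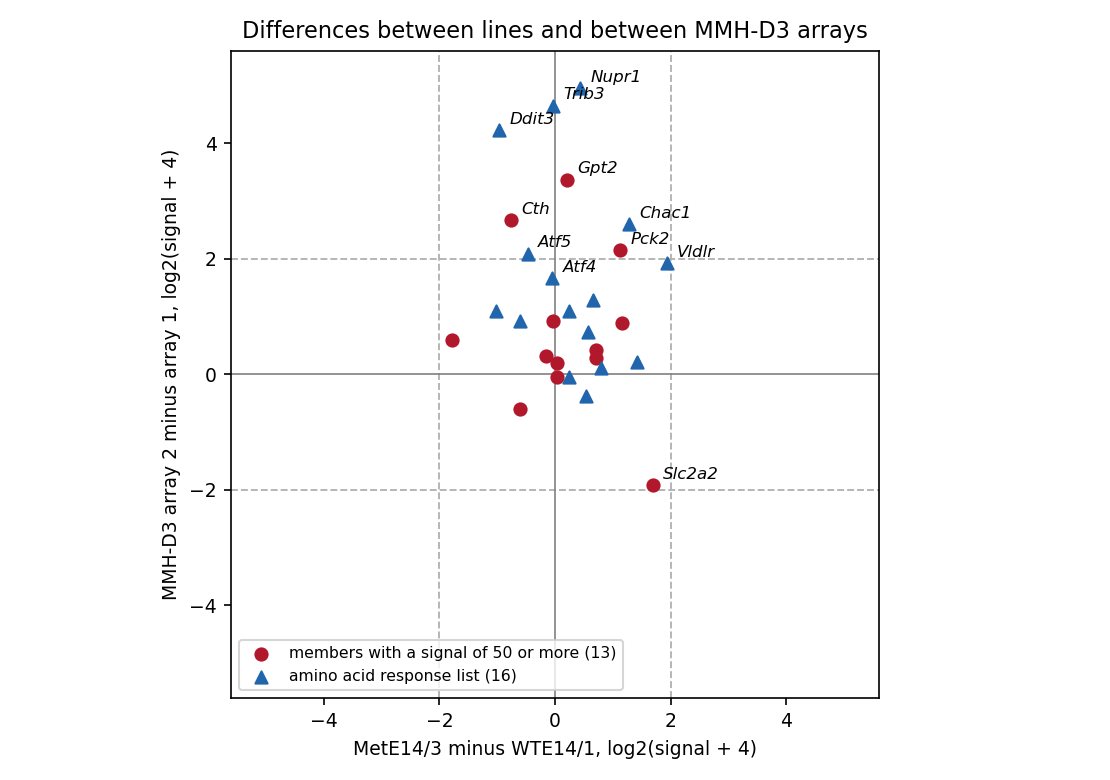
Differences on the log2(signal + 4) scale between MMH-D3 array 2 and array 1 (vertical axis) and between MetE14/3 and WTE14/1 (horizontal axis), for the 13 genes of the set that reached 50 (circles) and the 16 genes of the amino acid response list (triangles); dashed lines mark 4-fold. Gpt2, Cth and Pck2 lie above the upper line with Nupr1, Trib3, Ddit3, Chac1 and Atf5, and no point lies outside the dashed lines of the horizontal axis.

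The promoters of members from these groups are printed to show the letters that the amino acid response is known to use. RefSeq promoter sequence, build GRCm38.p6, was matched by symbol for 26 of the 36 genes, Cth not among them. The motif TGATGNAA is the form of the C/EBP-ATF response element searched here, on both strands. It occurred in the 250 bases before the start of 4 of these 26 genes, Asns, Pck2, Got1 and G6pc. Counted by promoter and not by gene, so in an unlike unit, it occurred in 3.45% of 32851 promoters. Below are the last 150 bases before the start, 5′ to 3′ on the gene's strand, with the motif in capitals in either orientation, for Gpt2, which moved most between the MMH-D3 arrays, and for the 4 genes with a match.
Gpt2, chr8:85492426-85492575, plus strand: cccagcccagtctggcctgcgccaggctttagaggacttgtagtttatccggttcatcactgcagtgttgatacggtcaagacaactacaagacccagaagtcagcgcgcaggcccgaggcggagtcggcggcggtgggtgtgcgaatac
Pck2, chr14:55540116-55540265, plus strand: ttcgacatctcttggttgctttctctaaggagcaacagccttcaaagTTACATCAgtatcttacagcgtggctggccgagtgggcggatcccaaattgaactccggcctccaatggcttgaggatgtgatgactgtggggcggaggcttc
Asns, chr6:7693210-7693359, minus strand: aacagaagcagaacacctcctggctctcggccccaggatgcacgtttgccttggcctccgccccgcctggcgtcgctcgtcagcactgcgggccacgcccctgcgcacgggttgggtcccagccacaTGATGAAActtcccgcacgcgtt
Got1, chr19:43524606-43524755, minus strand: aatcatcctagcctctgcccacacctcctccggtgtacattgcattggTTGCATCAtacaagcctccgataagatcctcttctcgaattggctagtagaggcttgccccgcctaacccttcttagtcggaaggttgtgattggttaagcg
G6pc, chr11:101367566-101367715, plus strand: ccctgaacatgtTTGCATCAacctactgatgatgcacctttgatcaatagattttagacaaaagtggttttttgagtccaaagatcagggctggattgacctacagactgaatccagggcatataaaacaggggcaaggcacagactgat
In Asns the match spans bases -23 to -16 from the start, in Pck2 -103 to -96, in Got1 -102 to -95 and in G6pc -138 to -131. G6pc was at background on all arrays although it holds the letters, and Gpt2 does not hold them in this window. A match is not a binding site, and the lack of one says only that these letters are not here.

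The RLSC lines were set against each other at the same genes, with 1 array each and no test. No tested gene of the set was at least 4-fold higher or lower in MetE14/3 than in WTE14/1, against 2.8% and 2.33% of all genes. The median difference, MetE14/3 minus WTE14/1, was 0.03, against 0.00 for all genes. The largest differences among genes that reached 50 were -1.78 for Fah and 1.69 for Slc2a2, followed by 1.16 for Glul and 1.12 for Pck2. By the probe sets that represent them, Got1, Gpt, Gpt2, Asns and Psat1 differed by at most 0.21 in either direction, while another Gpt2 probe set differed by 0.50 and the other Psat1 probe set by 0.78. The probe set that names Ass1 and another gene, which was not among the tested ones, differed by -3.30.

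Further genes of these pathways came from 7 lists of 124 genes, of which 90 were tested. None passed over all genes at a limma adjusted p of 0.05. At an unadjusted p under 0.05, 1 was higher, or 1.11%, against 5.27% of all genes, and 12 lower, or 13.3%, against 7.1%. Below both MMH-D3 arrays lay 33, or 36.7%, against 21.4% of all genes, and above both 5, or 5.56%, against 20.8%.

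Of 13 tested glucose partners, 3 lay below both MMH-D3 arrays, or 23.1%, close to the 21.4% of all genes, with a median of -0.35. Their members of highest mean, Ugp2, which makes UDP-glucose, and Pfkl, the liver phosphofructokinase, differed by -0.08 and -0.07. Of 11 general glycolysis genes, 5 lay below both, or 45.5%, with a median of -0.32. The enzymes Pgk1 and Ldha differed by -0.32 and -0.16. Of 8 urea and glutamate partners, 3 lay below both, or 37.5%, with a median of -0.06. Glud1, glutamate dehydrogenase, differed by -0.45 and Odc1, which uses ornithine for polyamines, by 0.14.

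Of 22 partners in amino acid breakdown, 9 lay below both MMH-D3 arrays, or 40.9%, and 2 above both, or 9.09%, with a median of -0.45. Got2, the mitochondrial partner of Got1, read 2994 and 3310 in MetE14/3 and WTE14/1, against 3334 and 1405 in MMH-D3 (0.61, SE 0.42, limma adjusted p = 0.665). Array 2 of MMH-D3 was the lowest of the 4 arrays, and the difference was -0.05 in pair A and 1.26 in pair B. Gcsh of the glycine cleavage system differed by 0.62. Of 10 methionine and one-carbon partners, 2 lay below both, or 20%, and 1 above both, with a median of 0.03. Ahcy, which clears S-adenosylhomocysteine, differed by 0.41 and Shmt2, a mitochondrial serine hydroxymethyltransferase, by -0.46.

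Regulators of these genes had a median of -0.89 over 12 tested, with 7 below both MMH-D3 arrays, or 58.3%, and 1 above both. The factors of highest mean were Cebpb, which read 823 and 316 in MetE14/3 and WTE14/1 against 1846 and 2003 in MMH-D3 (-1.92, SE 0.53, limma adjusted p = 0.202), and Foxa2, which read 206 and 630.2 against 1354 and 1253 (-1.81, SE 0.58, limma adjusted p = 0.271).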

How the data were processed

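The authors' deposited values are probe set signals, a linear intensity scale, which the submitters' processing notes trace to GCOS (array software of Affymetrix) without version or settings. Trimmed means of 198.7 to 200 show that each array was scaled to a like level. The number of arrays limits the precision. RNA input was 5 μg of total RNA and 15 μg of fragmented cRNA, per the labels. All 4 columns were mapped by accession.

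Names came from the platform annotation (34945 probe sets with 1 symbol, 932 with several, 9160 unnamed here, 64 controls left out). Values were taken as log2(signal + 4) and quantile normalized. Only probe sets whose mean reached the 40th percentile, near a signal of 11.7, were kept, and the one of highest mean represented a gene. The groups were compared with limma 3.58.1 (R 4.3.3; lmFit, eBayes with trend), two-sided, with Benjamini-Hochberg adjustment over all 12598 genes; residual degrees of freedom were 2 and prior ones 4.24. The fit was run on simulated data with independent noise and large shifts. These data held no array pair effect, so the run does not show how the fit does on these arrays. Folds of low genes are understated by the pseudocount of 4.

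All 36 genes were to be accounted for, with per-array signals for those at 50 or more, and of each further list the 2 members of highest mean or any that passed. The members, lists, array pairs and tests were chosen with earlier results of these data known. Alternatives covered the pseudocount, normalization, filter, probe set summary, trend, array pair as a block, and each array left out. Exact permutation of 2 against 2 arrays was not used, as it cannot pass the threshold. Python 3.11.15 and matplotlib 3.10.9 made the sequence matches and figures.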

Additional observations from a re-analysis of the deposited data

Results flagged for a closer look

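In 2 tested genes the deposited signals of the RLSC lines lay on opposite sides of both MMH-D3 arrays. Fbp1 read 7 in MetE14/3 and 27.6 in WTE14/1, a difference of -1.13 on the log2 scale, with 13.8 and 14.1 in MMH-D3. Hpd read 13.5 in MetE14/3 and 21.2 in WTE14/1, a difference of -0.10 after normalization, with 13.9 and 18.3 in MMH-D3. All these signals are below 50, each line had 1 array, and the difference was not tested. A probe set that names Ass1 and another gene, which no comparison used, gave a signal above the MMH-D3 arrays. Its signal was 973 in WTE14/1 and 99.2 in MetE14/3, while MMH-D3 arrays 1 and 2 gave 53.8 and 75.1, and which of its genes gave the signal cannot be told apart.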

How the results depend on the processing

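Pklr, lower with the mean of its probe sets, was the only member (1) that passed under any alternative run. Over all genes, 50 were higher and 65 lower; these counts became 4 and 5 without a filter and 83 and 166 with 3 lines as 3 groups, and 67 and 97 with the array pair as a block, which called no member. Leaving out each array in turn gave 0 to 52 higher and 0 to 154 lower genes, with 9 higher and 18 lower without WTE14/1, 154 lower without MetE14/3, and 0 by limma in both directions without MMH-D3 array 1 and without MMH-D3 array 2. The members' median of -0.55 was -1.36 with the filter at the 60th percentile, which tests fewer genes, and -1.00 within pair B; with an array left out it ranged from -0.95 (without MMH-D3 array 1) to -0.60, with -0.80 without WTE14/1. The count of members above both MMH-D3 arrays, 0, became 1 without further normalization (Cbs) and 1 to 4 with an array left out. Of members at least 4-fold apart, 1 was higher in MetE14/3 than in WTE14/1 without a filter, against 0 before. The comparison of the MMH-D3 arrays and the count over members that reached 50 were added after seeing the data, as was counting the probe set of 2 symbols for Ass1, which gave 19 genes at background in place of 20. Between the MMH-D3 arrays 1 member was lower on array 2 with a pseudocount of 1, and the 3 higher members became 4 without a filter and 2 with the mean of probe sets. The differences that changed sign were not called under any of these settings. Without further normalization Pck2 was 0.04, Fbp1 0.05, Ass1 0.09 and Hpd 0.07. Within pair A, Pck2 was 1.57, Asl 0.30 and Asns 0.07, where the fitted differences were negative. Within pair B, Fbp1 was 0.56, Gbe1 0.06 and Ass1 0.58, also negative in the fit. Cbs, positive in the fit, was -0.02 within pair B. Differences within a pair had no test. With an array left out, Pck2 ranged from -1.10 to 1.02, Fbp1 from -0.72 to 0.39, Ass1 from -1.06 to 0.81, Asl from -0.62 to 0.09 and Asns from -0.84 to 0.09. Without MMH-D3 array 2, Gpt2 was -0.40 and Cth -1.66. The causes were not tested. A block by replicate number could not be fitted, since the labels number the MMH-D3 arrays alone; the block above is the array pair. Of the 19 tested members, 6 lay below a signal of 50 on every array, where signal over background limits what can be read.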
